A study of Mus musculus with 18 samples.

Results

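The 41 genes described here encode the proteins that copy DNA and that commit a cell to doing so at the G1/S boundary. They were taken by name from a list of replication and G1/S genes and were 41 of the 24391 genes in each of the study's tables; all 41 were found in both and all passed the filter on low values. A cell licenses its replication origins in G1, when the origin recognition complex (Orc1 and Orc6 among its subunits), Cdc6 and Cdt1 load the ring of Mcm2 to Mcm7 onto DNA. In S phase, Cdc45 and the GINS complex (Gins1 to Gins4) join that ring to form the active helicase, Mcm10 helps it start, DNA polymerase alpha with its primase lays down primers, and polymerases delta and epsilon extend them. The sliding clamp Pcna, its loader (Rfc1 to Rfc5), the single-strand binding proteins Rpa1 and Rpa2, the flap nuclease Fen1 and the ligase Lig1 complete the new strands, and ribonucleotide reductase, thymidylate synthase and thymidine kinase supply the nucleotides. E2F factors and cyclin E drive the transcription programme that switches these genes on, and cycling T-lineage cells express them at high levels.

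The study sequenced ribosome-depleted RNA of E2-10HA cells, a mouse hybridoma line that the labels class as mature T cells. It asked what loss of L3MBTL3, a chromatin-binding protein, does to gene expression, and what restoring RBPJ, the DNA-binding factor of the Notch pathway, does in cells depleted of it. The knockdown set held 3 libraries of cells with a lentiviral hairpin against L3MBTL3, a single hairpin sequence, and 3 of cells with a scramble hairpin, all selected with puromycin. The rescue set held 12 libraries, all of RBPJ-depleted cells selected with blasticidin after retroviral infection, which carried Flag-tagged mouse RBPJ F261A/A284V (4 libraries), Flag-tagged mouse RBPJ WT (4) or an empty vector (4). Nothing in the labels tells whether the libraries of a group were grown or infected separately, and the p-values below therefore reflect a spread that may be technical.

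The targeted transcript checks the labels first. L3mbtl3 had normalized values of 394, 371 and 369.6 in the 3 libraries labelled L3MBTL3 shRNA, against 467, 447 and 352 in scramble replicates 1, 2 and 3. Scramble replicate 3 lay below every library labelled as knockdown, so the groups overlapped, and L3mbtl3 did not pass the limma test (log2 fold change -0.15, adjusted p = 0.402). For this reason the groups are named by their labels throughout, and each direction below rests on those labels. In the rescue set, Rbpj was higher in both RBPJ groups than in the empty vector, by 1.48 on the log2 scale for F261A/A284V (limma, adjusted p = 0.00114) and by 1.31 for WT (limma, adjusted p = 0.000475). Reads recovered from the tables summed to between 4882485 and 6129134 per knockdown library, to between 3553505 and 4239479 in rescue replicates 3 and 4, and to between 5923799 and 7921533 in rescue replicates 1 and 2. These numbers mark a divide that is treated here as a batch; the labels do not say what it is. F261A/A284V replicates 3 and 4 differed from each other by less than sampling noise, as did replicates 1 and 2 of RBPJ WT and of the empty vector, and each such pair was counted as 1 sample in means, which leaves n = 3 per rescue group. T cell markers were present in every library, with 8 or 9 of 10 at a value of at least 10 throughout each group, while summed B cell, stromal and natural killer markers reached no more than 7.61. Summed erythroid markers reached up to 36.3, and summed myeloid markers ran from 150 to 377 over the libraries.

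Levels of the 41 genes were compared with each other only per kilobase of exon, using the principal transcript of each gene in GENCODE M21. Mcm6, a subunit of the MCM ring, stood at 427 ± 17.1 normalized reads per kilobase in the libraries labelled L3MBTL3 shRNA and at 491 ± 22.3 in scramble (SD, n = 3 each). Rrm2, the regulated subunit of ribonucleotide reductase, stood at 407 ± 23 and 517 ± 41.4 in those groups. These genes held the top 2 places in both groups, in opposite orders, and their means differed by less than the larger SD in each group. Mcm3, Rrm1 and Mcm5 followed in 3rd to 5th place in scramble, at 370.1, 351 and 341 reads per kilobase. At the low end Gins3, a GINS subunit, had 50.7 ± 2.39 in the libraries labelled L3MBTL3 shRNA and 42.1 ± 12.7 in scramble, next to Gins2 at 37.1 ± 3.22 and 43.5 ± 6.37. The level of Gins2 is uncertain because 70.7% of its annotated exon length lies opposite exons of Gse1, and no source used here tells whether strand was used in counting. For Fen1, 78.8% of the exon length lies opposite another annotated gene, and the 8 members with over 10% of their exons in such an overlap (Fen1, Gins2, Rfc2, Rfc5, Rfc4, Orc1, Mcm7 and Ccne2) may share reads with their neighbours. Tyms has a processed copy, Tyms-ps, in the tables, so its reads may be split.

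The knockdown comparison asks which genes differ between the libraries labelled L3MBTL3 shRNA and scramble. Of the 41 genes, 4 fell and 0 rose at an adjusted p under 0.05 in limma, while 1.11% of all 11586 genes tested fell and 2.21% rose. The 4 were E2f2, Cdc6, Rrm2 and Mcm3. The fitted log2 fold change was negative for 33 members and positive for 8, with a median of -0.16, beside a median of -0.01 over all genes tested. In bulk RNA a smaller share of cells in S phase and less RNA of these genes per cell cannot be told apart.

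E2f2, an activating E2F transcription factor, had values of 453, 481 and 534 in the libraries labelled L3MBTL3 shRNA, against 626, 654 and 666 in scramble. Every value under the L3MBTL3 label was below every scramble value. Its log2 fold change was -0.41 (95% confidence interval -0.57 to -0.25; limma, adjusted p = 0.0348). Cdc6, the factor that helps load the MCM ring at origins, had 345, 381 and 396 in the libraries labelled L3MBTL3 shRNA and 486, 515 and 467 in scramble, again without overlap. It fell by 0.39 on the log2 scale (interval -0.56 to -0.22; limma, adjusted p = 0.0413). Rrm2 stood at 844, 892 and 945 in the libraries labelled L3MBTL3 shRNA, against 1049, 1121 and 1229 in scramble. The highest of the first group was well under the lowest of the second, and the log2 fold change was -0.34 (interval -0.51 to -0.18; limma, adjusted p = 0.0491). Mcm3, a subunit of the MCM ring, had 899.7, 895 and 946 in the libraries labelled L3MBTL3 shRNA and 1079, 1160.4 and 1126 in scramble. The groups were apart here too, and the log2 fold change was -0.30 (interval -0.42 to -0.17; limma, adjusted p = 0.0362). In percent, E2f2 fell by 24.7, Cdc6 by 23.5, Rrm2 by 21.0 and Mcm3 by 18.5.

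The promoters of the 4 genes are shown because E2F factors are textbook regulators of this gene set and RBPJ is the factor the study concerns. Each line gives the 250 bases before and 50 bases from the start of the gene's transcript, 5′ to 3′ on the gene's strand, from RefSeq on GRCm38.p6. Capitals mark matches on either strand to the E2F letters TTTCGCGC, TTTGGCGC, TTTCCCGC or TTTGCCGC, or to the RBPJ core letters TGGGAA. No 2 marked matches overlap in these windows. The windows are Cdc6 at chr11:98907901-98908200, plus strand, E2f2 at chr4:136172024-136172323, plus strand, Mcm3 at chr1:20820263-20820562, minus strand, and Rrm2 at chr12:24708004-24708303, plus strand.
Cdc6: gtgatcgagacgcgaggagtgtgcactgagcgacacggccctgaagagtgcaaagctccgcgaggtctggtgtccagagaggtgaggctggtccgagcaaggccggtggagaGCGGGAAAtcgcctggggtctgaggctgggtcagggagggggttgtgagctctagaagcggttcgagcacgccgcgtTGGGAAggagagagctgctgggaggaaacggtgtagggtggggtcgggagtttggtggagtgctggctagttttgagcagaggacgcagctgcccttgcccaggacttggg
E2f2: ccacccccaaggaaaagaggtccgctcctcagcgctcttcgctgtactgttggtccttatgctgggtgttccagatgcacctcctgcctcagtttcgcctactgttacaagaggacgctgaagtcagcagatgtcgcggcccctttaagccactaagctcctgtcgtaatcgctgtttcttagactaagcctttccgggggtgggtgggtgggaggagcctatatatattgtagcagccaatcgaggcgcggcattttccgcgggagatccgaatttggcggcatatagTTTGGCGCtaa
Mcm3: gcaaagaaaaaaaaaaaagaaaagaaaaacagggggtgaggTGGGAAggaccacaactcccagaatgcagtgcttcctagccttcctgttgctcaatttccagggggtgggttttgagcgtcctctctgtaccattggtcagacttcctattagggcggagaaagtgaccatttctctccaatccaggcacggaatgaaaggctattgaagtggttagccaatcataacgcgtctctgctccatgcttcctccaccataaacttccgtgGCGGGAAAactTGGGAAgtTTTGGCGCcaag
Rrm2: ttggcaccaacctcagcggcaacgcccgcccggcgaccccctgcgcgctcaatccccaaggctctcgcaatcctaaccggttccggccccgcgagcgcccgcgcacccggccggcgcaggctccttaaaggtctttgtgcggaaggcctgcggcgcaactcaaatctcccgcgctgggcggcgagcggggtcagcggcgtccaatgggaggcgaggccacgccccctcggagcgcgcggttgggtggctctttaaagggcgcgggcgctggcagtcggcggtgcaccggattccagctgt

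Counting from the first base printed, Cdc6 held an E2F match on the opposite strand at position 113 and TGGGAA at position 190. E2f2 held TTTGGCGC at position 290, and a second annotated window of this gene held none of the letters searched. Mcm3 held E2F matches at positions 270 and 289 and TGGGAA at positions 42 and 281. In Rrm2 none of these letters was found in the window. RefSeq windows were matched for 33 of the 41 members; those without one were Mcm4, Gins1, Gins2, Gins4, Prim2, Pole, Rfc2 and Ccne2. At least 1 of the E2F letters was in the windows of 14 of the 33, which is 42.4%, beside 4.81% of the 8650 tested genes that had a window and 2.6% of all 27025 genes with one. TGGGAA was in the windows of 12 members, 36.4%, beside 25.9% of tested genes and 28.3% of all genes, and GTGGGAA in 3 members, 9.09%, beside 6.93% and 7.25%. A match of letters is a description of the sequence and says nothing of binding. The 14 members with E2F letters had a median knockdown log2 fold change of -0.22, and the 19 without had -0.14; this difference was not tested. Mitosis genes, which also tended lower in the knockdown (given further on), held E2F letters in 1 of 27 windows, 3.7%. Whether these letters have a part in the changes was not tested.

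Replicate numbers are shared by the 2 groups, and libraries of the same number deviated together from their group means (correlations of 0.24 to 0.54 across genes). With the replicate number as a block in the limma fit, 16 of the 41 genes fell and 0 rose, beside 8.71% of all genes tested falling and 13.5% rising. All 4 genes above were among the 16, with adjusted p of 0.000945 for E2f2, 0.00112 for Rrm2, 0.00264 for Mcm3 and 0.00296 for Cdc6. Fold changes are the same in both fits, and only the estimate of the spread differs. Without any test, 20 of the 41 genes had every value under the L3MBTL3 label below every scramble value and 0 had every value above, where 17.1% of all genes tested were apart downward and 18.1% upward.

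**Figure D1:**
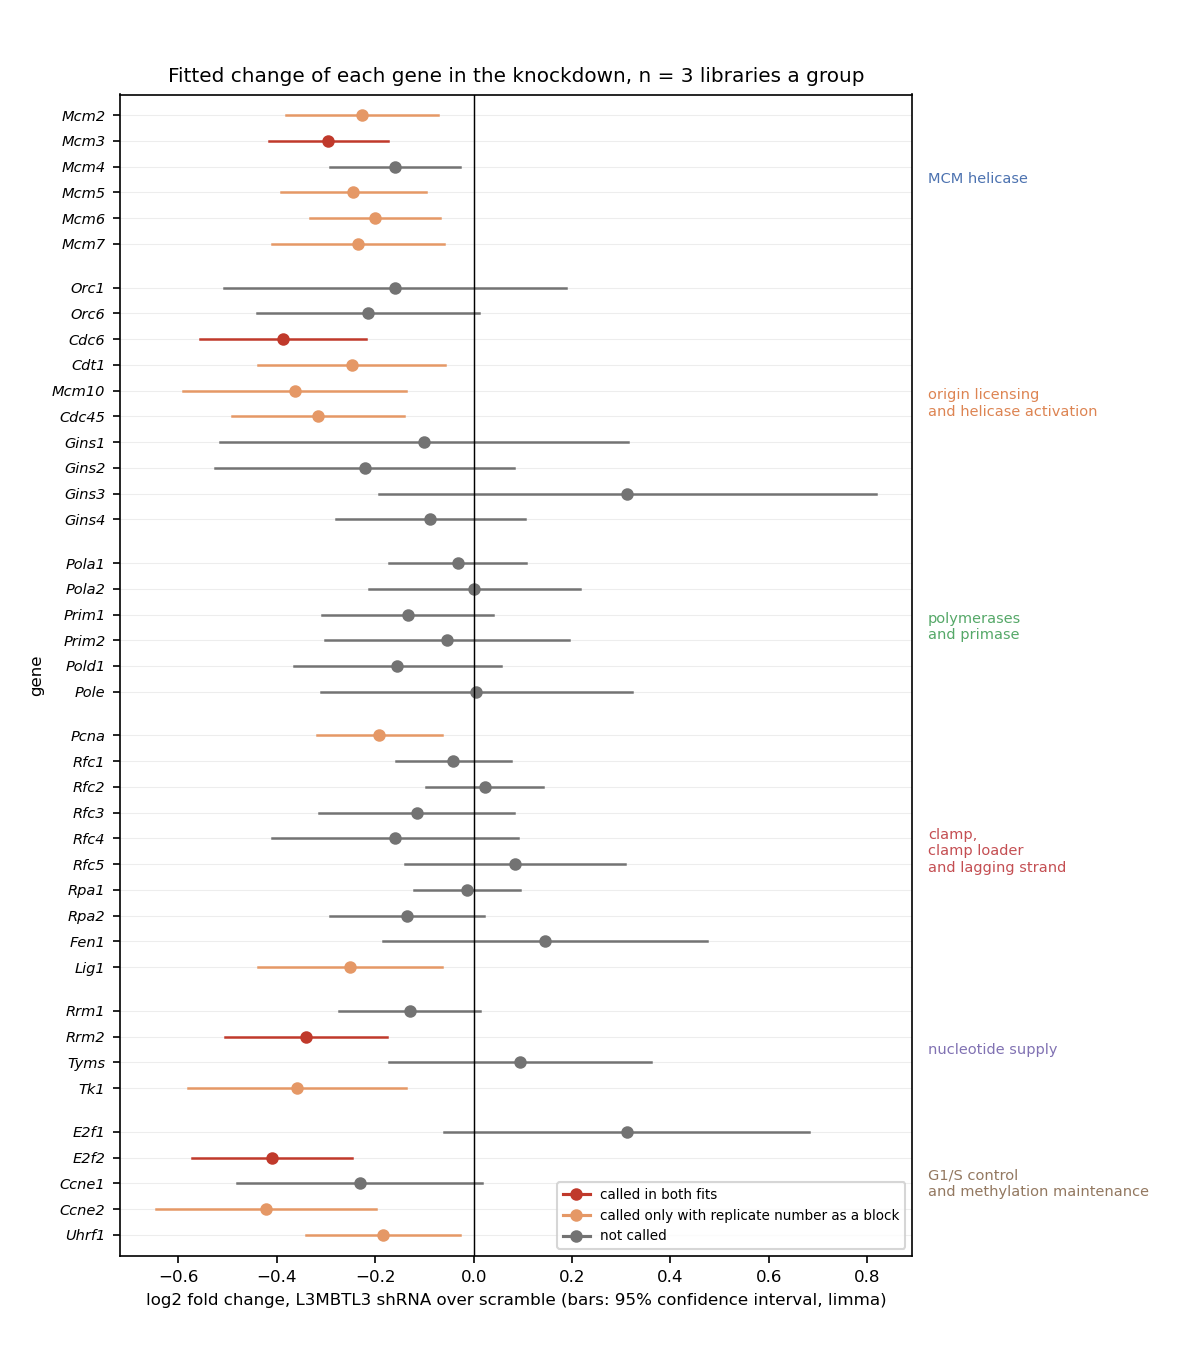
Fitted log2 fold change of each of the 41 genes, L3MBTL3 shRNA over scramble, grouped by role, with bars for the 95% confidence interval from limma (n = 3 libraries a group). The 4 genes called in both fits (E2f2, Cdc6, Rrm2, Mcm3) and the 12 called only with the replicate number as a block all lie left of 0.

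All 6 subunits of the MCM ring had negative fold changes, from -0.30 for Mcm3 to -0.16 for Mcm4, and for all 6 the groups did not overlap. Mcm3 passed the limma test, and with the replicate block Mcm2, Mcm5, Mcm6 and Mcm7 passed as well. Mcm4 had values of 923, 930.2 and 992 in the libraries labelled L3MBTL3 shRNA, against 1012, 1113 and 1055 in scramble, and missed the threshold in both fits (limma, adjusted p = 0.135, and 0.0543 with the block). The median of the 6 fold changes was -0.23.

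Among the 10 genes of origin licensing and helicase activation the median was -0.22, and 4 fell with the replicate block, namely Cdc6, Mcm10, Cdc45 and Cdt1. Mcm10, which helps the assembled helicase start unwinding, had 383, 383 and 397 in the libraries labelled L3MBTL3 shRNA, against 508, 569 and 429 in scramble. The group under the L3MBTL3 label was tight and below all of scramble, which spread widely, and the log2 fold change was -0.36 (limma, adjusted p = 0.0754; 0.00976 with the block). Cdc45, the helicase cofactor, stood at 356, 356 and 400.3 in the libraries labelled L3MBTL3 shRNA and 435, 493 and 457 in scramble, without overlap, with a log2 fold change of -0.32 (limma, adjusted p = 0.0613; 0.00968 with the block). Cdt1, the partner of Cdc6 in loading the ring, had 379, 416 and 405 in the libraries labelled L3MBTL3 shRNA and 431, 525 and 472 in scramble. Its groups were also apart, and the log2 fold change was -0.25 (limma, adjusted p = 0.117; 0.0193 with the block). Among the GINS genes, Gins4 was at -0.09 (limma, adjusted p = 0.52), and Gins3, named here after its values were seen, was the member with the highest fold change, 0.31. Gins3 had 131, 121 and 132 in the libraries labelled L3MBTL3 shRNA, against 117, 131 and 70.1 in scramble, so its positive value came with 1 low library, scramble replicate 3. Its interval ran from -0.19 to 0.82 and it did not pass the test (limma, adjusted p = 0.391).

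The 6 polymerase and primase genes lay nearest to 0, with a median of -0.04 and 0 called in either fit. Limma gave 17 of the 41 members an unadjusted p under 0.05, all of them lower, and none of the 17 belonged to this role; of all genes tested, 25.5% were at that level in either direction. Pold1, the catalytic subunit of polymerase delta, had the largest difference of the group, at -0.15 (interval -0.36 to 0.05; limma, adjusted p = 0.315), with values of 792, 815 and 844 in the libraries labelled L3MBTL3 shRNA and 893, 1048 and 804 in scramble. Pola2, the accessory subunit of polymerase alpha, had the smallest, at 0.00 (interval -0.21 to 0.22; limma, adjusted p = 0.997). In both genes the groups overlapped. Scramble replicate 3 was below both other scramble libraries for each gene of this role, as for 26 of the 41 members. The part of that library in the role's median was not tested. Of the 16 alternative fits given further on, 4 called Pold1 lower, 1 called Prim1 lower and 1 Pole, while Pola1, Pola2 and Prim2 were called in 0. The role groups were not tested against each other.

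Of the 10 clamp, clamp loader and lagging-strand genes, Lig1 and Pcna fell with the replicate block and none passed without it. Lig1, the ligase that joins Okazaki fragments, had 810.3, 785 and 901 in the libraries labelled L3MBTL3 shRNA, against 954, 923 and 1100.1 in scramble. The groups were apart by a narrow margin, and the log2 fold change was -0.25 (limma, adjusted p = 0.112; 0.00551 with the block). Pcna stood at 429.6, 422 and 424 in the libraries labelled L3MBTL3 shRNA and 471, 494 and 493 in scramble, a log2 fold change of -0.19 (limma, adjusted p = 0.086; 0.0474 with the block). Rpa1, the large subunit of the single-strand binding complex, had 1153, 1172 and 1134 in the libraries labelled L3MBTL3 shRNA and 1149, 1185 and 1158 in scramble. These values interleave, and its log2 fold change of -0.01 had an interval of -0.12 to 0.09. The median of the 10 was -0.08.

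The 4 nucleotide supply genes had a median of -0.24. Tk1, the thymidine kinase of the salvage route, had 218, 210.0 and 231 in the libraries labelled L3MBTL3 shRNA, against 270.4, 317 and 262 in scramble. The groups did not overlap, and the log2 fold change of -0.36 passed only with the block (limma, adjusted p = 0.0736; 0.021 with the block). Tyms, thymidylate synthase, had 157, 161 and 188 in the libraries labelled L3MBTL3 shRNA and 154, 172 and 146 in scramble, which overlap, with a log2 fold change of 0.09 (interval -0.17 to 0.36; limma, adjusted p = 0.623). Rrm1, the large reductase subunit, was at -0.13 and was not called, while Rrm2, its partner, fell.

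The 5 G1/S genes had a median of -0.23, and 3 of them, E2f2, Ccne2 and Uhrf1, fell with the replicate block. E2f1, an activating E2F like E2f2, had values of 297, 335 and 299 in the libraries labelled L3MBTL3 shRNA, against 263, 309 and 191 in scramble. Scramble replicate 3 was lowest and the other 5 libraries interleaved, and the log2 fold change of 0.31 did not pass the test (interval -0.06 to 0.68; limma, adjusted p = 0.264; 0.0508 with the block). Ccne2, a cyclin E, had the most negative fold change of all 41 members, -0.42, from 386, 402 and 448 in the libraries labelled L3MBTL3 shRNA and 482, 571 and 609.7 in scramble. Its groups were apart, and it passed with the block alone (limma, adjusted p = 0.0564; 0.0012 with the block). Ccne1, the other cyclin E gene, was at -0.23 and was not called in either fit. Uhrf1, which carries DNA methylation through replication, was at -0.19 (limma, adjusted p = 0.142; 0.0459 with the block).

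**Figure D2:**
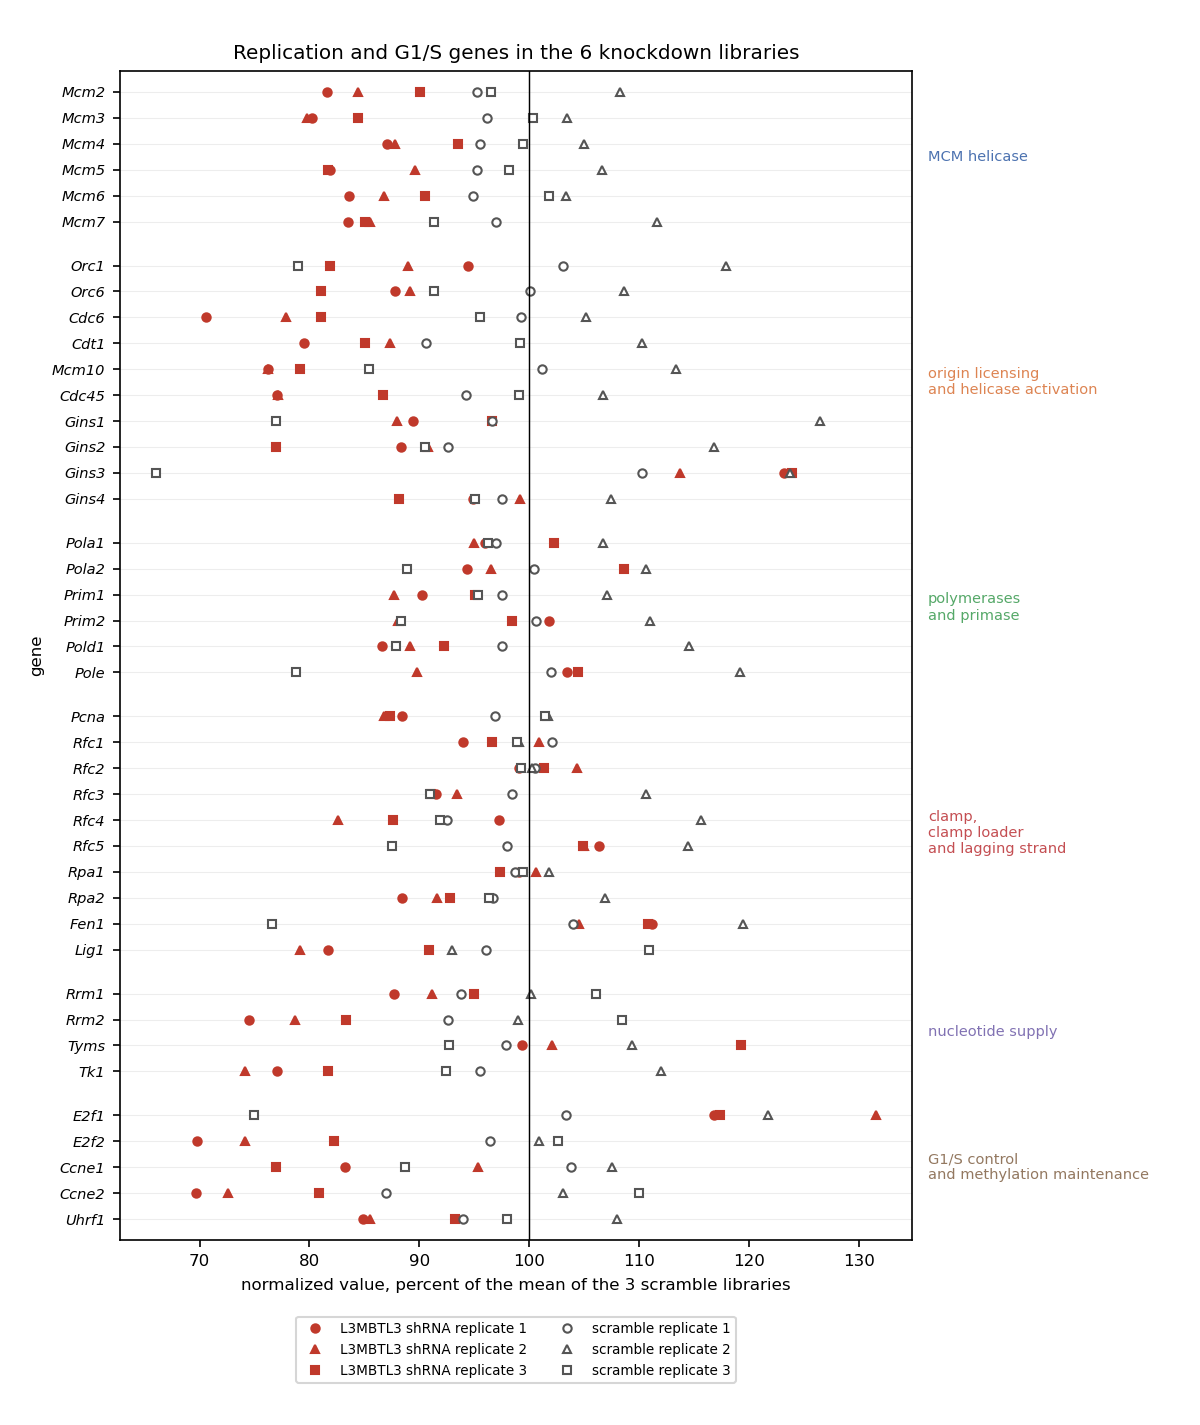
Normalized value of each of the 41 genes in each knockdown library, as percent of the mean of the 3 scramble libraries, grouped by role; filled red symbols are L3MBTL3 shRNA libraries and open grey symbols scramble libraries. Red symbols lie left of all grey ones in 20 rows, and the open squares (scramble replicate 3) lie far to the left for Gins3, E2f1, Fen1, Gins1, Orc1 and Pole.

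The spread within scramble bears on these counts. Taken as percent of the scramble mean, the median member was at 88.3%, 89.0% and 90.9% in the 3 libraries labelled L3MBTL3 shRNA, against 97.0%, 108% and 95.3% in scramble replicates 1, 2 and 3. The median over all genes lay between 99.2% and 100% in every one of these libraries. Scramble replicate 2 was the highest of the 6 libraries for 31 of the 41 genes, and scramble replicate 3 was below both other scramble libraries for 26 and below every library labelled L3MBTL3 shRNA for 10. Shares over all genes for these counts are not given here, so they are not read as particular to the members. Leaving out scramble replicate 2 left 0 members called, as did leaving out any 1 of the libraries labelled L3MBTL3 shRNA (limma), with 0 to 5 of all genes called and 1673 to 2907 at an unadjusted p under 0.05; leaving out scramble replicate 1 left 4, where 0.837% of all genes fell, and leaving out scramble replicate 3 left 10, where 3.31% fell. With both libraries numbered 3 left out, 16 members fell, where 7.42% of all genes fell, so the calls over the whole table were more numerous too. Across these and the other alternatives, 16 in all, 28 of the 41 genes had a negative fold change every time and 0 were called higher in any. The alternatives are not separate checks of sign. The block and unfiltered fits keep the main fold changes, the fits without the libraries numbered 3 share theirs, and all use the same libraries. Summed myeloid markers were also lower in the libraries labelled L3MBTL3 shRNA (237 to 307) than in scramble (334 to 377); only 1 of the 6, Cd68, reached a value of 10 in every library, and the part of other cells in the result was not tested.

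Other genes of the same processes, from lists chosen with earlier results known, gave these counts. Among 22 further helicase, origin and checkpoint genes, 2 fell and 0 rose: Recql4, a helicase needed to start replication, at -0.41 (limma, adjusted p = 0.0348), and Fbxo5, an inhibitor of the anaphase-promoting complex, at -0.34 (limma, adjusted p = 0.0492). Among 24 further polymerase, clamp and chromatin assembly genes, 1 fell, the chromatin remodeller Hells, at -0.29 (limma, adjusted p = 0.0348). Of 14 further nucleotide supply genes, 1 rose, Samhd1, which breaks down deoxynucleotides, at 0.34 (limma, adjusted p = 0.0437). Of 25 further G1/S genes tested, 1 rose, Tfdp2, a dimerisation partner of E2F proteins, at 0.45 (limma, adjusted p = 0.0447). With the replicate block the counts were 6 lower and 0 higher for the helicase list, 4 and 1 for the polymerase list, 1 and 1 for the nucleotide list and 4 and 2 for the G1/S list. The medians of these lists were -0.11, -0.09, -0.05 and -0.06. Mitosis genes, which act after replication, had a median of -0.25; 6 of 32 fell and 0 rose in limma, and 30 fell with the replicate block. The largest of the 6 was Cdc20, an activator of the anaphase-promoting complex, at -0.49 (limma, adjusted p = 0.0373). Taken per library, the median mitosis gene was at 80.9%, 84.8% and 87.2% of the scramble mean in the libraries labelled L3MBTL3 shRNA, against 92.5%, 99.7% and 108% in scramble replicates 1, 2 and 3. Scramble replicate 3 was thus the highest library for mitosis genes and the lowest scramble library for the replication genes. The lists were not tested against each other.

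In the rescue set none of the 41 genes passed the test between groups. That test counted all 12 libraries as samples, the near-identical ones included. Against the empty vector, 0 members were called for RBPJ F261A/A284V, where 0.0171% of all 11691 genes tested rose and 0% fell. For RBPJ WT against the empty vector, 0 were called, where 0.0342% of all genes rose and 0.214% fell. For F261A/A284V against WT, 0 were called, where 0.231% rose and 0.0855% fell. In each comparison 0 members had an unadjusted p under 0.05 in limma, beside 2.05%, 3.4% and 4.62% of all genes tested in the same order. At such shares a count of 0 of 41 is near the background. Both edgeR and DESeq2 on the recovered reads also called 0. The comparisons share libraries and are not independent of each other. No member had groups without overlap in any of them, where 1.92%, 3.34% and 3.7% of all genes did, in the order just given. Overlap says little here, since every group spans the divide. For 18 members all libraries numbered 3 or 4 were below all others, and for 2 above, so their groups had to overlap. The same holds for 21.3% and 26.2% of all genes tested.

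A fit with near-identical libraries merged and the divide as a batch term called 0 members for F261A/A284V against the empty vector (0.0513% of all genes rose and 0.0428% fell), 0 for WT against the empty vector (0.667% rose and 0.855% fell) and 0 for F261A/A284V against WT (1.08% rose and 0.881% fell). In that order, 4, 2 and 3 members had an unadjusted p under 0.05 in it (limma), beside 5.02%, 11% and 11.2% of all genes tested. The member fold changes in it had medians of -0.07, -0.05 and -0.01, beside 0.01, -0.01 and 0.02 over all genes. No interval reached beyond -0.56 or 0.40. In it 35, 29 and 26 members were negative, beside 46.2%, 53.8% and 44.7% of all genes. With group as the only term 37, 32 and 28 were negative, beside 46.2%, 53.5% and 45.0%. For the first comparison 39 were negative within replicates 3 and 4, 26 within replicates 1 and 2 and 25 with merging alone. All-gene shares were 49.4%, 46.0% and 51.4%, and signs were not tested. Merging alone joins replicates 3 and 4 of F261A/A284V but replicates 1 and 2 of the empty vector. Without a batch term the divide is then unequal between these groups. The lowest member value for F261A/A284V against the empty vector in the merged fit was -0.27 for Gins2 (interval -0.54 to 0.00). For WT against the empty vector the extremes were -0.22 for Gins1 (interval -0.43 to -0.02) and 0.17 for Gins3 (interval -0.06 to 0.40). These GINS genes were named after their values were seen.

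Of the 4 genes that fell in the knockdown, 3 had these values in the rescue, and E2f2 is described after them. Cdc6 had 529.5, 507, 328 and 328 in F261A/A284V replicates 1 to 4, 530.3, 512, 409 and 379.5 in RBPJ WT and 547, 517, 401 and 378 in the empty vector. Mcm3 had 1168, 1027, 1126 and 1132 in F261A/A284V, 1097, 1065, 1188 and 1126 in RBPJ WT and 1098, 1129, 1246 and 1224 in the empty vector. The groups overlapped in both genes. Cdc6 was lower in all libraries numbered 3 or 4 than in all numbered 1 or 2, so its groups had to overlap. Mcm3 was not lower in replicates 3 and 4. In the merged fit the log2 fold change of Cdc6 was -0.13 for F261A/A284V (interval -0.27 to 0.02) and 0.00 for WT (interval -0.14 to 0.14) over the empty vector, and that of Mcm3 was -0.08 (interval -0.20 to 0.05) and -0.08 (interval -0.20 to 0.05). Rrm2 had 1039, 843, 1083 and 1041 in F261A/A284V, 895, 846, 1024 and 1068 in RBPJ WT and 871, 908, 1155 and 1259 in the empty vector, again with overlap. Its log2 fold change over the empty vector was -0.06 for F261A/A284V (interval -0.22 to 0.10) and -0.15 for WT (interval -0.30 to 0.00). Each of these intervals included 0.

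**Figure D3:**
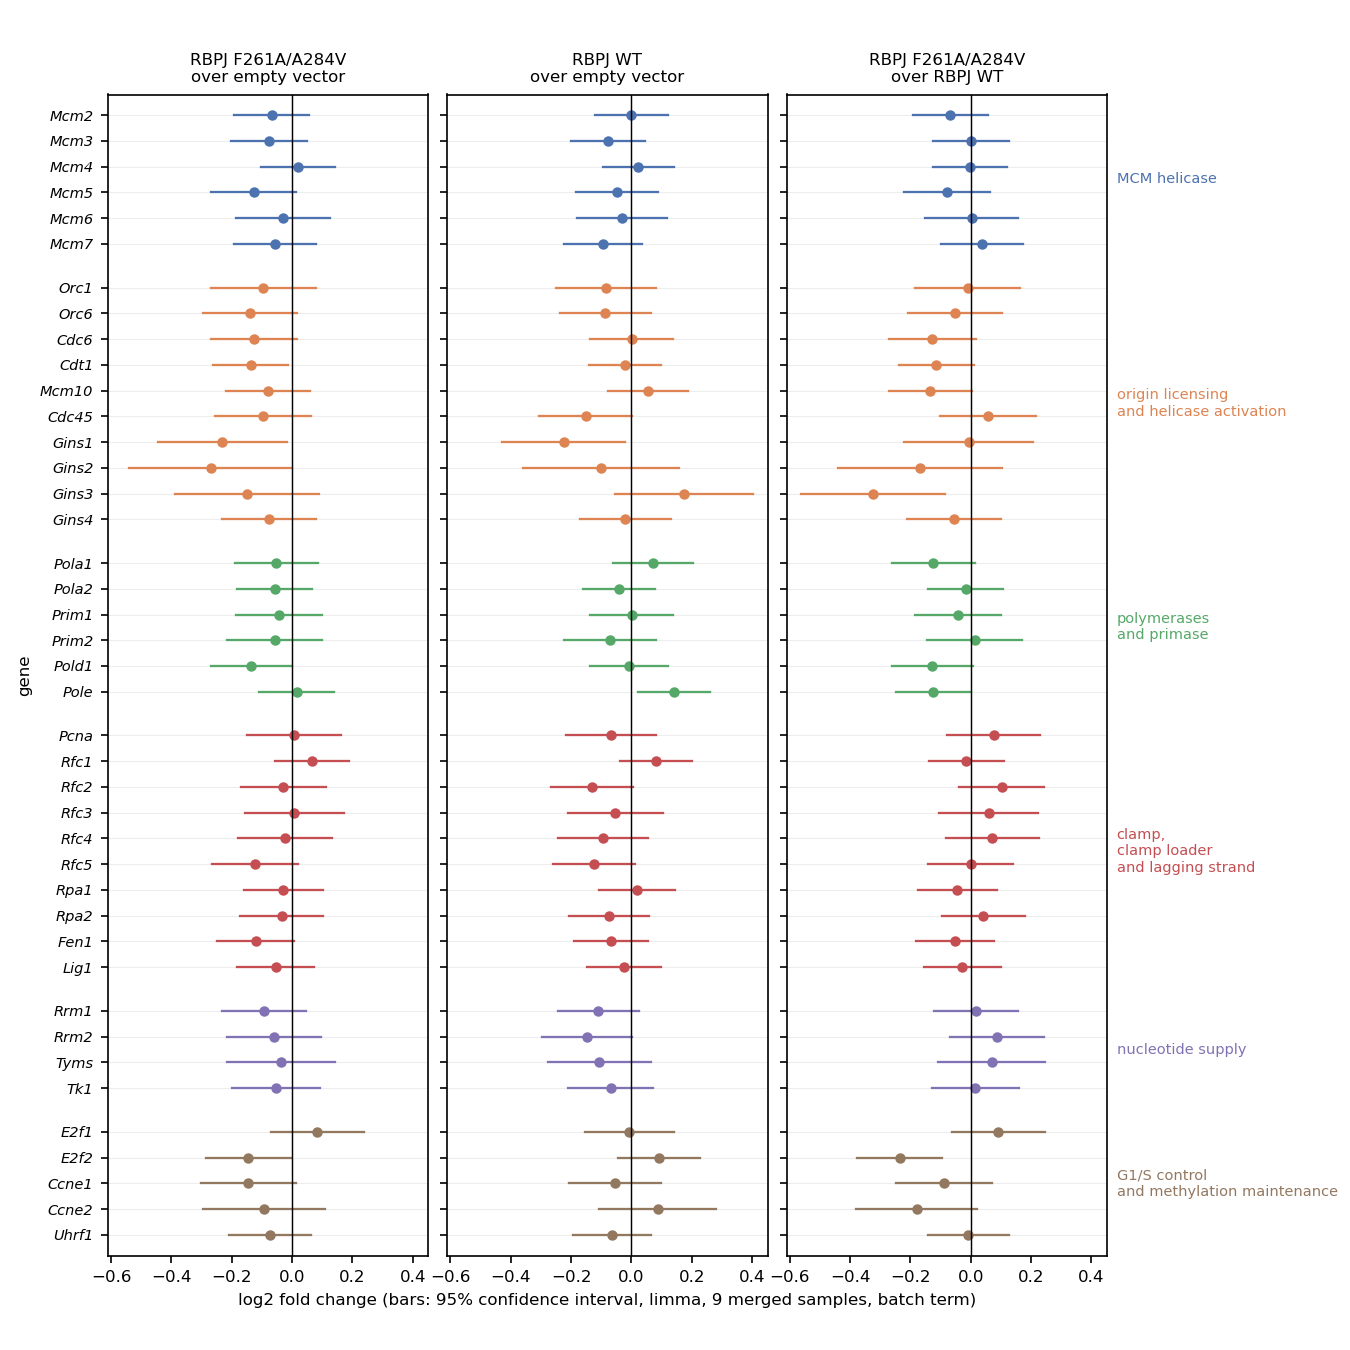
Fitted log2 fold change of each of the 41 genes in the 3 rescue comparisons, from limma on 9 merged samples with the divide as a batch term; bars are 95% confidence intervals and colours mark roles. No gene was called in any panel; the intervals that leave out 0 are those of Cdt1, Gins1, Pold1 and E2f2 (all lower) for F261A/A284V over empty vector, of Gins1 (lower) and Pole (higher) for RBPJ WT over empty vector, and of Gins3, Pole and E2f2 (all lower) for F261A/A284V over RBPJ WT.

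The exceptions under other fits lay in F261A/A284V against WT. With the replicate number as a block, E2f2 and Gins3 fell and 0 members rose, where 2.51% of all genes rose and 2.23% fell. E2f2 had 697, 732, 451 and 520.4 in F261A/A284V replicates 1 to 4, against 783, 739, 673 and 606 in WT and 745, 744, 574 and 601 in the empty vector. Within replicates 3 and 4 both mutant libraries were below both WT libraries, and within replicates 1 and 2 likewise by a smaller margin. The log2 fold change against WT was -0.24 (limma with the block, adjusted p = 0.0222), and -0.24 with an adjusted p of 0.0892 in the merged fit. Gins3 had 149, 171, 100.1 and 94.1 in F261A/A284V, against 178, 188, 121 and 145 in WT and 175, 171, 122 and 105 in the empty vector. Here too each mutant value was below the WT values of the same side of the divide, with a log2 fold change of -0.32 (limma with the block, adjusted p = 0.0492; 0.223 in the merged fit). Within replicates 3 and 4 alone, 6 members fell, E2f2, Ccne2, Mcm10, Pola1, Pole and Pold1, at -0.40 to -0.22, where 3.4% of all genes fell. That fit counts F261A/A284V replicates 3 and 4 as 2 samples although they differed by less than sampling noise. So do the block fit and the interaction below, which also count replicates 1 and 2 of RBPJ WT and of the empty vector apart. Within replicates 1 and 2 alone 0 members were called. The difference of the effect between the sides of the divide was tested as an interaction, which called 0 members; the smallest member adjusted p was 0.108 (limma), and 67 of all genes were called.

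**Figure D4:**
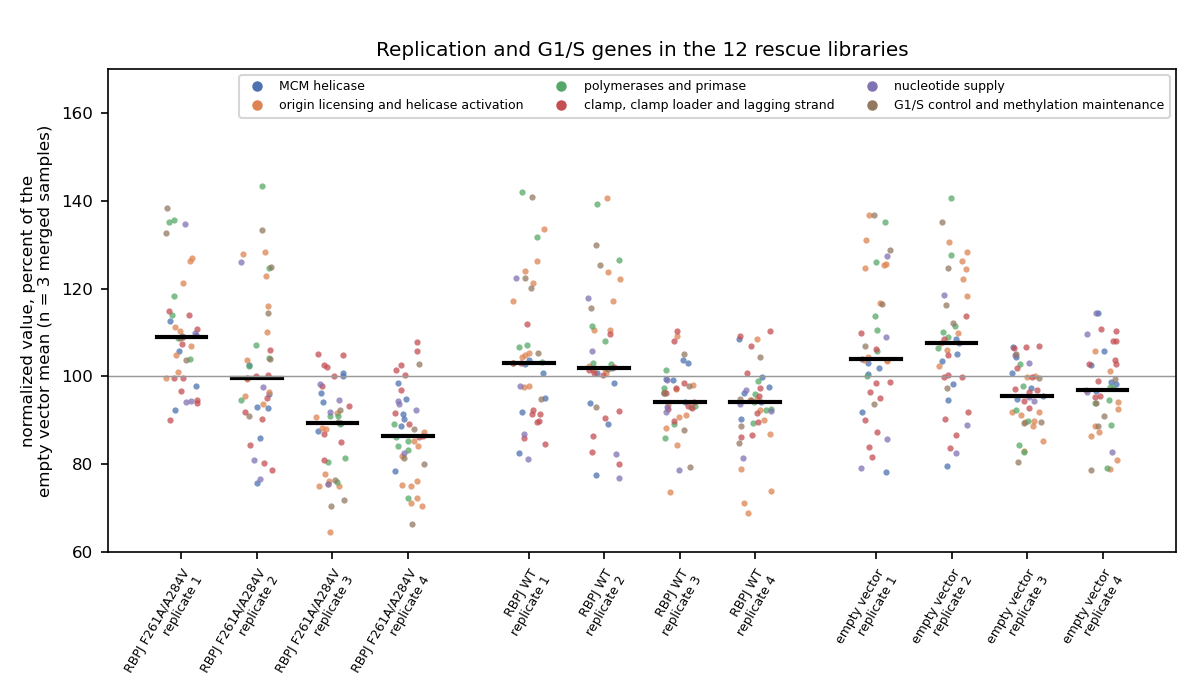
Normalized value of the 41 genes in each of the 12 rescue libraries, as percent of the empty vector mean (n = 3 merged samples); points are genes coloured by role and black lines are library medians. Medians are 86.4% to 89.3% in F261A/A284V replicates 3 and 4 and 94.1% to 96.9% in the other libraries of those numbers, against 99.6% to 109% in replicates 1 and 2 of all groups.

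Within the rescue set the libraries of all 3 groups also differed along the divide. It is described without a test because it was known from earlier results. The mean over groups of the log2 difference, replicates 3 and 4 minus replicates 1 and 2, had a median of -0.15 over the 41 genes, and 30 were lower and 11 higher; the median over all genes tested was -0.02. For 18 of the 41, which is 43.9%, all 6 libraries numbered 3 or 4 were below all 6 numbered 1 or 2, and for 2, which is 4.88%, all were above. Of all genes tested 21.3% were apart downward and 26.2% upward. Depth differed along the same divide, and its part was not tested.

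The size of the difference along the divide varied between roles, and roles with a median near 0 held genes of both directions. Licensing and helicase activation genes had a median of -0.47 and all 10 were lower. Orc1, an ATPase subunit of the origin recognition complex, had values of 167 to 193 in replicates 3 and 4, against 276 to 309 in replicates 1 and 2, a log2 difference of -0.70. The polymerase genes had a median of -0.26, with Pole, the catalytic subunit of polymerase epsilon, lowest of all 41 at -0.73 (648 to 797 in replicates 3 and 4, against 1156 to 1224 in replicates 1 and 2). The G1/S genes had a median of -0.38, and Ccne2 lay at -0.72, with 238 to 374 in replicates 3 and 4, against 447 to 505 in replicates 1 and 2. By contrast the MCM ring had a median of -0.06, with Mcm6 higher, at 0.38 (1593 to 1851 in replicates 3 and 4, against 1227 to 1496 in replicates 1 and 2), Mcm3 at 0.10 and the other 4 subunits at -0.13 to -0.04. Rpa1 was the other gene whose libraries were all higher, at 0.36 (1309.8 to 1447 in replicates 3 and 4, against 1026 to 1176 in replicates 1 and 2). Clamp and lagging-strand genes had a median of 0.05 and nucleotide supply genes of 0.02; among the nucleotide genes Rrm2 was at 0.30 and Tyms at -0.59. The genes of this paragraph were named after their values were seen. Mitosis genes were higher on that side of the divide in each group: as percent of the empty vector mean their median was 97.5% and 97.6% in F261A/A284V replicates 3 and 4, against 93.2% and 83.9% in replicates 1 and 2. In RBPJ WT it was 99.5% and 104% in replicates 3 and 4, against 87.4% and 83.9% in replicates 1 and 2, and in the empty vector 105% and 108%, against 87.2% and 87.0%.

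**Figure D5:**
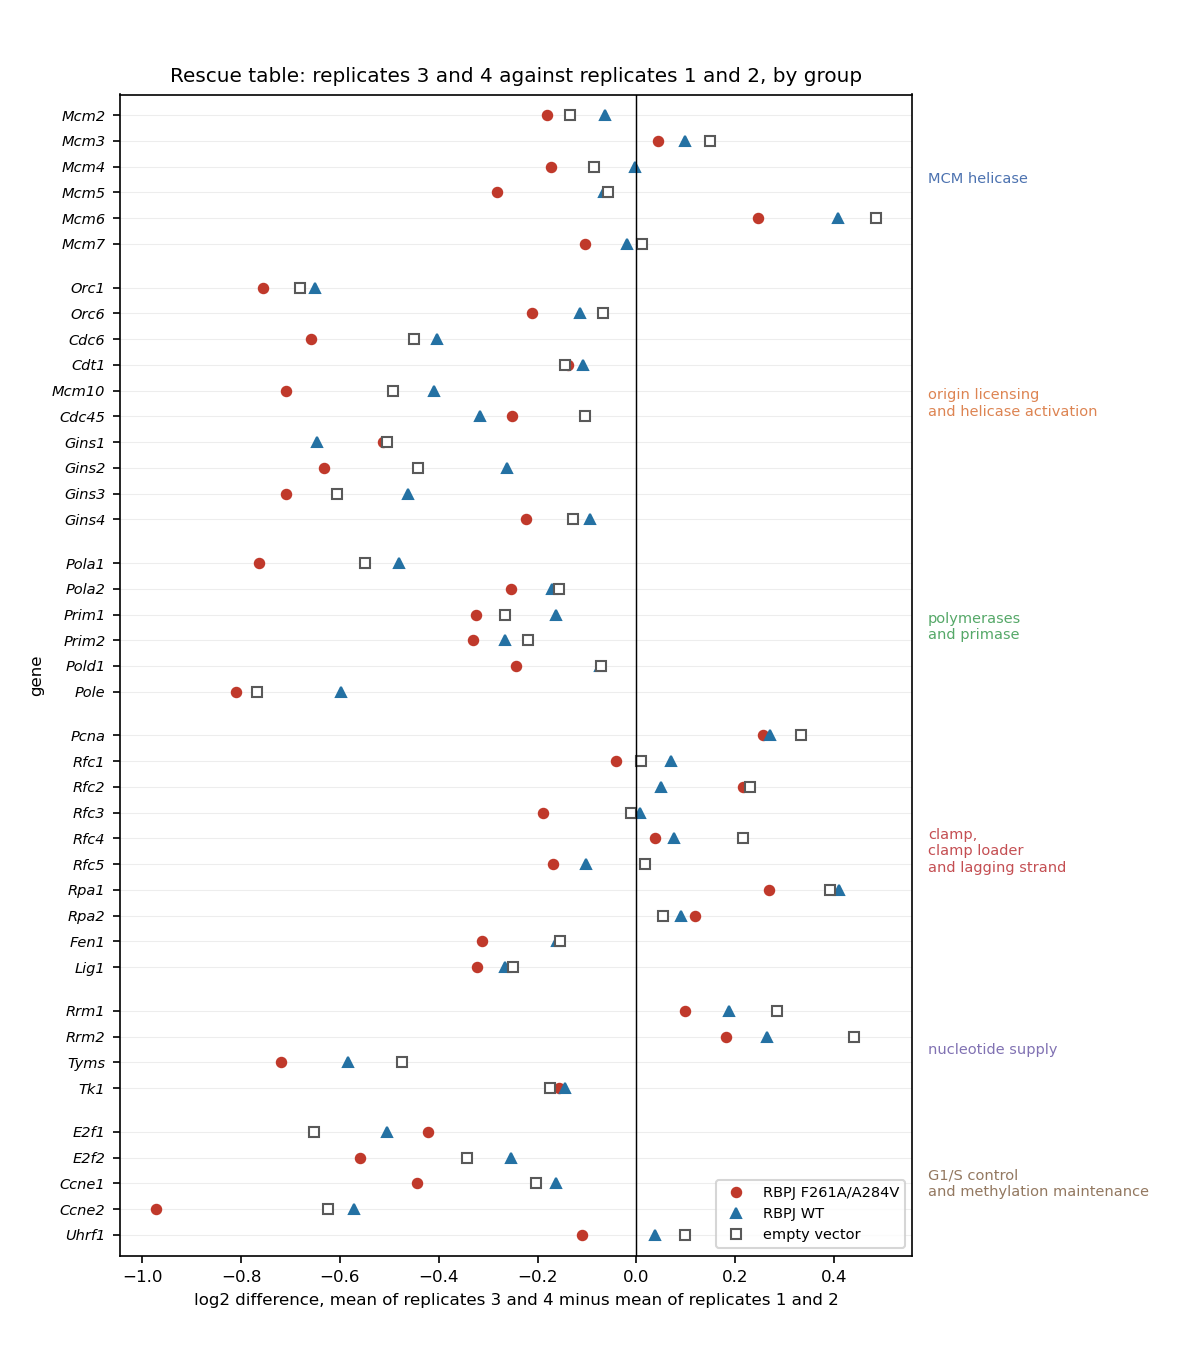
Log2 difference between the mean of replicates 3 and 4 and the mean of replicates 1 and 2 in each rescue group, for each of the 41 genes, grouped by role; red circles are RBPJ F261A/A284V, blue triangles RBPJ WT and open squares empty vector. Orc1, Mcm10, Gins1, Gins3, Pola1, Pole, Tyms, E2f1 and Ccne2 lie far below 0 in all groups, and Mcm6, Rpa1, Pcna and Rrm2 lie above 0 in all groups.

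Scramble replicate 3 of the knockdown set, a separate table, also stood apart from its group in these genes. This library was the shallowest of the set, with 4882485 reads against 5822710 to 6129134, and the part of depth was not tested. Its log2 difference from the mean of scramble replicates 1 and 2 was negative for 33 of the 41 genes, 27 of which were also lower in rescue replicates 3 and 4. Of all 41 members 30 were lower there, and shares over all genes for these counts are not given here. Across the 41 genes the 2 differences had r = 0.50 and rho = 0.48, and across 11253 genes tested in both sets r = 0.45 and rho = 0.50; genes are not independent replicates, each axis rests on a few libraries, and the values are a description. All 10 members for which scramble replicate 3 was below every library labelled L3MBTL3 shRNA (Orc1, Gins1, Gins3, Pola2, Pole, Rfc3, Rfc5, Fen1, Tyms and E2f1) were lower in rescue replicates 3 and 4 too. The share over all genes for this count is not given either, so it is not read as particular to them. For L3MBTL3 shRNA replicate 3 the same comparison gave r = -0.11 over the 41 genes and 0.13 over all genes. With GC content the rescue divide had r = 0.04 over the 41 genes and 0.19 over all 11253, and with the log2 of exon length -0.15 and -0.32. The difference of scramble replicate 3 had r = -0.19 and -0.02 with GC content, and 0.12 and -0.10 with length. The part of these properties in the divide was not tested.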

How the data were processed

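RNA-seq values for 18 libraries came from 2 tables, 1 per experiment, each deposited by the authors and listing 24391 gene symbols. The submitters' processing notes name TopHat2 2.1.1, DESeq2 1.24.0 and, as the build, mm9. Read counter, annotation and strand use were not given in the sources used here. All deposited values are a normalized signal; in every library 100% came out as whole reads when divided by the step of the library (tolerance 0.1 read), and these reads fed the count tests. The tables were normalized separately, and tests stay within a table.

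Genes with a value of at least 10 in at least 3 (knockdown) or 4 (rescue) libraries were tested, 11586 and 11691 genes, on log2(value + 1), which understates changes of low genes, with the 2-sided limma-trend test of limma 3.58.1 under R 4.3.3 and group as the only term. A gene was called where its p, adjusted by Benjamini-Hochberg over the whole table, was under 0.05. edgeR 4.0.16 (quasi-likelihood) and DESeq2 1.42.0 on the recovered reads were alternatives; in the knockdown edgeR called 320 genes higher and 152 lower. Groups and numbers came from the labels. Same-numbered knockdown libraries correlated at 0.24 to 0.54 in their deviations from group means, others at -0.47 to 0.33. These ranges overlap, and for the block fit the numbers were assumed to pair the libraries. In the rescue, same-numbered libraries correlated at 0.55 to 0.81 and libraries of other numbers on the same side of the divide at 0.56 to 0.83. Library pairs with a chi-square per degree of freedom under 1 over genes (0.859, 0.721 and 0.823) were averaged as 1 sample in means and in the merged fits only. All other rescue fits counted every library as a sample. Other pairs of those groups gave 1.06 to 17.0.

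The scripts were tested on simulated data. The 41 members and all lists were chosen with earlier results of these data known. Genes named were members called, of those called with the block (knockdown) or in the merged fit (rescue) the 10 with the largest change, and the largest and smallest of each role; other members were named after their values were seen. Promoters are RefSeq's on GRCm38.p6. Lengths and overlaps are from GENCODE M21.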

Additional observations from a re-analysis of the deposited data

How the results depend on the processing

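For the knockdown, the number of the 41 genes called lower was 4, and it was 5 with edgeR, 6 with DESeq2, 4 with a pseudocount of 5, 3 without a filter, 7 with quantile scaling, 19 with library weights, 16 with the replicate block, 19 with the replicate block and trends with GC content and length removed, and 16 without the libraries numbered 3. It was 25 with the replicate block and the libraries numbered 3 left out, an alternative added after seeing the data, in which Pole was at -0.195, against 0.01 with all libraries. Leaving out 1 library at a time, or both numbered 3, gave 0 to 16; the cause was not tested. Over all genes the block raised the calls to 1566 higher and 1009 lower, against 256 and 129. Genes called lower were 152 with edgeR, 199 with DESeq2, 144 with a pseudocount of 5 and 376 with quantile scaling, of 11586. They were 870 with library weights, 860 without the libraries numbered 3, and 78 of 17780 without a filter. With the block they were 1592 of 11483 with trends removed, and 1458 without the libraries numbered 3. Calls thus rose over all genes too. In the rescue, F261A/A284V against RBPJ WT went to 2 members called with the replicate block, 2 with a batch term, 2 with the replicate block and trends removed, and 6 within replicates 3 and 4. No member was called for the 2 comparisons with the empty vector under any alternative run, the added merging without a batch term included. The median fold change of the 41 genes in the knockdown, -0.16, was -0.10 without scramble replicate 2, -0.21 with library weights and -0.22 without the libraries numbered 3. For F261A/A284V against RBPJ WT the median, -0.02, was -0.09 within replicates 3 and 4 but 0.02 within replicates 1 and 2. It was 0.03 with merging and no batch term and 0.00 without F261A/A284V replicate 4, so its sign was not stable. In both of these last fits the groups hold unequal shares of the sides of the divide, along which the members differed. The part of this imbalance was not tested. Depth was 3553505 to 7921533 reads a library. A group had 3 libraries in the knockdown and 4 in the rescue, or 3 samples where near-identical libraries were merged.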
